A study of Mus musculus with 6 samples.

Results

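The collagen genes are the 36 genes of the expression table, of 25102 in all, whose names carry a collagen chain number, taken without any filter on expression. They were followed in livers of male C57BL/6J mice from a model of hepatocellular carcinoma. The 3 DEN+CCl4 libraries came from mice that received diethylnitrosamine (DEN), a carcinogen that hepatocytes turn into a DNA-alkylating agent, as 1 intraperitoneal dose of 1 mg/kg. From about 6 weeks after that these mice were given carbon tetrachloride (CCl4), which injures hepatocytes, with 2 intraperitoneal doses of 0.2 mL/kg per week until at most week 14 of CCl4. The 3 control libraries came from mice of the same strain, sex and starting age of 2 weeks, and the labels name no injection for them. The labels do not say whether a DEN+CCl4 library came from a tumour or from the liver around it, and they give a replicate number but no animal, so the p-values here measure only how these 6 samples spread. Of the 36 genes, 10 encode fibrillar collagens, 6 the type IV collagens of basement membranes and 20 other collagens.

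Collagens are secreted as trimers of chains that wind into a triple helix. Fibrillar collagens (types I, III and V in most soft tissues) assemble into the cable-like fibrils of scar, and in injured liver their main source is the hepatic stellate cell after it turns into a myofibroblast. Type IV chains form the sheet-like network of basement membranes, which the healthy liver sinusoid largely lacks as a continuous layer. Type XVIII collagen, whose cleaved end is endostatin, is made by hepatocytes themselves.

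Expression was deposited as FPKM, that is, a fragment number divided by transcript length and by library total, so levels of different genes can be compared. DEN+CCl4 replicate 3 stood apart from the other libraries. In it the mitochondrially encoded genes took 64.2% of all FPKM, against 26.6% to 42.95% in the other 5 libraries, and the middle value of the tested genes was 1.19 FPKM, against 3.43 to 4.46 FPKM. Values are therefore also given after median-ratio scaling, which sets the libraries to a common scale by the median, over genes, of a library's value relative to the geometric mean of all 6. The tissue label was checked on 1 hepatocyte marker: Alb, serum albumin, was between 7482 and 24459 FPKM in DEN+CCl4 liver and between 13751 and 23556 FPKM in control liver. Because these are bulk samples, fewer cells of a type and less RNA per cell cannot be told apart.

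DEN+CCl4 liver was set against control liver to ask how collagen transcripts differ in the carcinoma model. Among collagens, the chains of types I and III and several type IV chains were higher in all 3 DEN+CCl4 libraries than in any control library, whereas Col18a1, Col5a3 and Col27a1, the most abundant collagen transcripts of control liver, had lower means in DEN+CCl4 liver. No collagen gene passed the test across all genes. Of the 11 collagen genes that averaged 1 FPKM or more, 0 passed limma at a Benjamini-Hochberg adjusted p of 0.05 over 8528 genes, of which 1.48% passed (126 genes, 71 of them higher and 55 lower in DEN+CCl4 liver). The number of calls moved with the processing. Without any 1 control library it was 7 to 11 higher and 5 to 9 lower, and without DEN+CCl4 replicate 3, and also after median-ratio scaling, 0 genes passed limma (at an unadjusted p under 0.05, 536 higher and 149 lower without that replicate, and 378 and 558 after the scaling). At an unadjusted p under 0.05, limma gave 3 collagen genes that were higher and 1 that was lower, against 2.53% and 5.07% of the tested genes. The median log2 fold change of the 11 was 0.24, beside -0.27 for all tested genes. After median-ratio scaling the median over all tested genes was -0.10, and that of the 9 collagen genes still tested was 0.77. Col5a1 and Col20a1, at -0.08 and 0.03 as deposited, then missed the filter, so the collagen medians of 0.24 and 0.77 cover different genes. As deposited, the middle gene of these 9 was Col14a1, at 0.58. A collagen gene below 1 FPKM in controls passed the filter only if its DEN+CCl4 values were higher, so the 11 are a selected part of the 36. Col1a1, Col4a1 and Col20a1 averaged 0.787, 0.813 and 0.973 FPKM in control liver and passed only through their DEN+CCl4 values. Col1a1 was among the 3 higher genes at an unadjusted p under 0.05.

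Without any filter, 9 of the 36 collagen genes had every DEN+CCl4 library above every control library, and 1, Col24a1, had every DEN+CCl4 library below. Over the 24933 genes above 0 in any library, these shares were 3.83% and 4.06%. After median-ratio scaling the counts were 12 and 3, against 6.55% and 5.83% of genes, and the 9 and the 1 were among them. Without DEN+CCl4 replicate 3 they were 17 and 1, against 16.6% and 4.34% of genes. The 9 were Col1a1, Col1a2, Col3a1, Col5a2, Col4a2, Col4a3, Col4a4, Col6a6 and Col14a1.

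**Figure D1:**
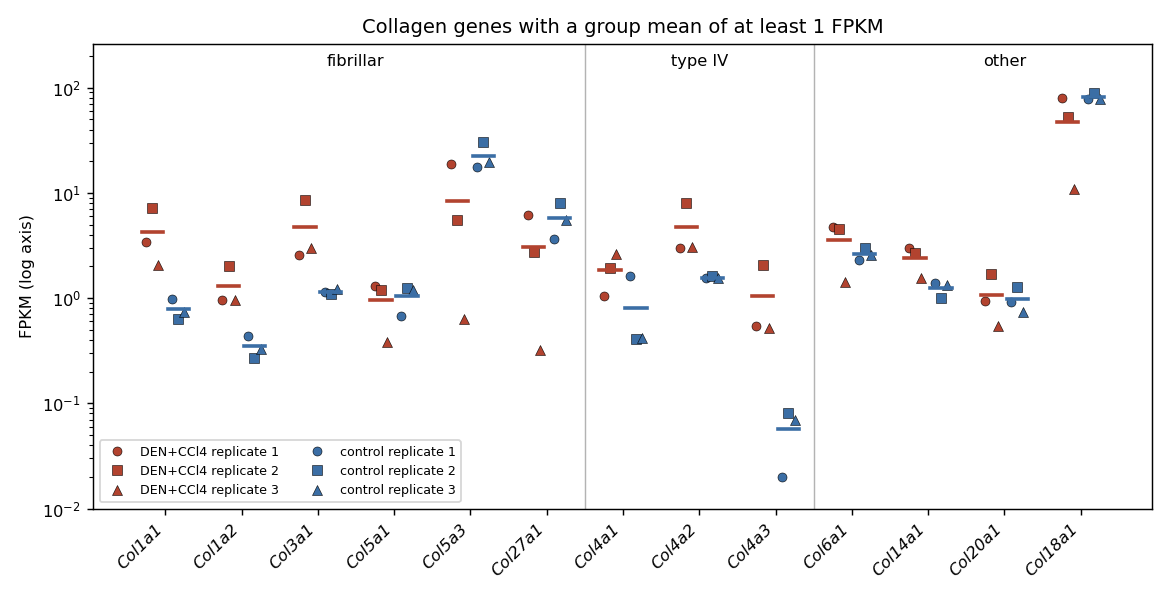
FPKM on a log axis for the 13 collagen genes that averaged 1 FPKM or more in either group, with DEN+CCl4 libraries in red and control libraries in blue. Each point is 1 library and each bar is the mean of 3. Col1a1, Col1a2, Col3a1, Col4a2, Col4a3 and Col14a1 have all red points above all blue points, and the red triangle of DEN+CCl4 replicate 3 lies far below the controls for Col18a1, Col5a3 and Col27a1.

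Col1a1 and Col1a2 encode the chains of type I collagen, the bulk protein of scar. Col1a1 (chromosome 11, 94936224 to 94953042, GRCm38) measured 3.38, 7.25 and 2.06 FPKM in the DEN+CCl4 libraries (always listed as replicates 1, 2 and 3), against 0.99, 0.63 and 0.74 FPKM in control liver. The groups did not overlap, and the lowest DEN+CCl4 value, in the library with the high mitochondrial share, was still above the highest control value. Its means were 4.23 ± 2.70 and 0.787 ± 0.184 FPKM in DEN+CCl4 and control liver (SD, n = 3), and the log2 fold change was 1.43 with a standard error of 0.48 (limma adjusted p = 0.123). Col1a2 (chromosome 6, 4504814 to 4541544) was at 0.96, 2.03 and 0.95 FPKM in DEN+CCl4 liver and at 0.44, 0.27 and 0.33 FPKM in control liver. These groups did not overlap either, but its mean over the 6 libraries was 0.83 FPKM, below the filter. Fitted without a filter, its log2 fold change was 0.75 ± 0.28 (standard error; limma adjusted p = 0.875).

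Col3a1, the chain of type III collagen that makes the fine reticular fibres of liver, had the same pattern (chromosome 1, 45311538 to 45349706). It was at 2.54, 8.55 and 2.99 FPKM in DEN+CCl4 liver, against 1.14, 1.09 and 1.21 FPKM in control liver. The controls lay close together, and the lowest DEN+CCl4 library was above all of them. The means were 4.69 ± 3.35 and 1.15 ± 0.0603 FPKM in DEN+CCl4 and control liver (SD, n = 3), with a log2 fold change of 1.26 ± 0.50 (standard error; limma adjusted p = 0.314). Col5a2, a chain of type V collagen, which starts and limits fibril growth, is the next gene on chromosome 1, with 24614 bases between the 2 genes and no protein-coding gene in between. It was at 1.00, 1.07 and 0.52 FPKM in DEN+CCl4 liver and at 0.11, 0.24 and 0.17 FPKM in control liver. The lowest DEN+CCl4 value was again above the highest control value. Col5a1, the partner chain of Col5a2, did not share this pattern, at 1.30, 1.20 and 0.38 FPKM in DEN+CCl4 liver and 0.67, 1.26 and 1.20 FPKM in control liver (log2 fold change -0.08, limma adjusted p = 0.996).

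Col5a3 and Col27a1, which are fibrillar too, had lower means in DEN+CCl4 liver. Col5a3, another type V chain (chromosome 9, 20770050 to 20815067), was the most abundant fibrillar transcript of control liver. It measured 18.67, 5.57 and 0.63 FPKM in DEN+CCl4 liver, against 17.72, 30.61 and 19.46 FPKM in control liver. DEN+CCl4 replicate 1 lay within the control range and replicates 2 and 3 lay below it. The means were 8.29 ± 9.32 and 22.6 ± 6.99 FPKM in DEN+CCl4 and control liver (SD, n = 3), with a log2 fold change of -1.95 ± 0.75 (standard error; limma adjusted p = 0.277). After median-ratio scaling Col5a3 was at 15.0, 3.82 and 1.50 in DEN+CCl4 liver and at 16.2, 26.8 and 16.7 in control liver, and the groups no longer overlapped. Without DEN+CCl4 replicate 3 the log2 fold change was -1.01. Without DEN+CCl4 replicate 1 it passed the test (log2 fold change -2.81, limma adjusted p = 0.0156), the only collagen call under any alternative tried, with adjusted p between 0.0156 and 0.9998 over these alternatives. Col27a1, a fibrillar collagen best known from cartilage (chromosome 4, 63214004 to 63334991), was at 6.10, 2.76 and 0.32 FPKM in DEN+CCl4 liver and at 3.65, 8.06 and 5.53 FPKM in control liver. DEN+CCl4 replicates 2 and 3 were below the controls and replicate 1 was among them (log2 fold change -0.99 ± 0.58, standard error, limma adjusted p = 0.792, and -0.33 without replicate 3).

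The bases before the annotated starts of Col3a1 and Col1a2, which were higher, and of Col5a3, which had a lower mean, are shown to set these fibrillar genes beside each other. They come from RefSeq on GRCm38.p6, where 28 of the 36 genes had an entry, and stretches inside any GENCODE exon were left out. Capitals mark 3 motifs searched on both strands: the CCAAT box, the TATA box in the form TATAAA, and the GC box in the form GGGCGG.
Col3a1: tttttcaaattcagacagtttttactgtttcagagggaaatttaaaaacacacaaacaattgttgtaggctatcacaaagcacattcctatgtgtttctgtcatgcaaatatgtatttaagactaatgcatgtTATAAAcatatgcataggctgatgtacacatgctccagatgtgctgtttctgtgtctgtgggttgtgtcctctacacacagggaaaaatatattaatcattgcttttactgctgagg
Col1a2: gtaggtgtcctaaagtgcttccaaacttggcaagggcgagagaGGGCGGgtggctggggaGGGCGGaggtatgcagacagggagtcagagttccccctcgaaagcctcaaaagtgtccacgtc
Col5a3: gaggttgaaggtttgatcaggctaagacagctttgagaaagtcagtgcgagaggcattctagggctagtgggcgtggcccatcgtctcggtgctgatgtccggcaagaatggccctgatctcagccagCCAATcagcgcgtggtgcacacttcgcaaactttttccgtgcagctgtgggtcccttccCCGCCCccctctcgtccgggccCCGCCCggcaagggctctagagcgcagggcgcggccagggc
The Col3a1 stretch is chr1:45311288-45311537 on the plus strand, the Col1a2 stretch chr6:4505370-4505492 on the plus strand and the Col5a3 stretch chr9:20815068-20815317 on the minus strand. The Col3a1 and Col5a3 stretches run from position -250 to -1 before the RefSeq start, and the Col1a2 stretch only from -248 to -126. The Col1a2 stretch lies between exons of a longer GENCODE transcript of the same gene. The bases nearest the Col1a2 start are thus neither shown nor searched, so its motifs cannot be set directly against those of the other genes. The Col3a1 stretch holds 1 TATAAA and neither other motif, and the Col5a3 stretch holds 1 CCAAT and 2 copies of GGGCGG read on the opposite strand. The Col1a2 stretch holds 2 copies of GGGCGG. In the 250 bases before all 32851 RefSeq starts, CCAAT occurred in 33.8%, TATAAA in 12.4% and GGGCGG in 32.7%, and in the 123 bases placed as those of Col1a2 GGGCGG occurred in 13.3%. The motifs do not overlap one another, and a match is only a match of letters.

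Of the fibrillar genes at low levels, Col11a2, a minor chain of cartilage fibrils, was between 0.21 and 0.84 FPKM in DEN+CCl4 liver and between 0.29 and 0.36 FPKM in control liver. Col24a1, a minor fibrillar chain, was between 0 and 0.03 FPKM in DEN+CCl4 liver and between 0.05 and 0.10 FPKM in control liver. Col2a1, the cartilage collagen, did not exceed 0.01 FPKM in any library.

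Of the 6 type IV chains, 3 lay above the controls in every DEN+CCl4 library as deposited and 4 after median-ratio scaling, and none lay below. Over all genes, 3.83% and 6.55% lay above, and 4.06% and 5.83% below. Without DEN+CCl4 replicate 3, Col4a2, Col4a3, Col4a4, Col4a5 and Col4a6 lay above, as did 16.6% of all genes. Col4a2, which with Col4a1 makes the common basement membrane network, was at 3.01, 8.03 and 3.07 FPKM in DEN+CCl4 liver, against 1.55, 1.61 and 1.54 FPKM in control liver. The 3 controls were nearly equal, and each DEN+CCl4 library was well above them. The means were 4.70 ± 2.88 and 1.57 ± 0.0379 FPKM in DEN+CCl4 and control liver (SD, n = 3), with a log2 fold change of 1.04 ± 0.52 (standard error; limma adjusted p = 0.643). Its partner Col4a1 was at 1.05, 1.92 and 2.60 FPKM in DEN+CCl4 liver and at 1.61, 0.41 and 0.42 FPKM in control liver. Control replicate 1 exceeded DEN+CCl4 replicate 1, so these groups overlapped (log2 fold change 0.68 ± 0.41, standard error, limma adjusted p = 0.830). The 2 genes stand head to head on chromosome 8 and their annotated ends share 22 bases, and whether the counting used strand is not given in the sources used here.

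Col4a3 and Col4a4 encode chains best known from the basement membrane of the kidney glomerulus. Col4a3 (chromosome 1, 82586921 to 82722059) was at 0.54, 2.06 and 0.52 FPKM in DEN+CCl4 liver, against 0.02, 0.08 and 0.07 FPKM in control liver. Every DEN+CCl4 library was far above the highest control, and replicate 2 was far above the other DEN+CCl4 libraries. Its mean over the 6 libraries, 0.548 FPKM, was below the filter and without a filter the log2 fold change on the FPKM + 1 scale, which understates changes of low genes, was 0.87 ± 0.29 (standard error; limma adjusted p = 0.875). Col4a4 was at 0.08, 0.75 and 0.22 FPKM in DEN+CCl4 liver and at 0.01, 0.05 and 0.05 FPKM in control liver. Its groups did not overlap, but the lowest DEN+CCl4 value was close to the highest control value. The noncoding gene C430014B12Rik, which overlaps Col4a3 on the opposite strand, was between 0 and 0.05 FPKM in DEN+CCl4 liver and between 0.06 and 0.08 FPKM in control liver. Col4a5 was at 0.26, 0.49 and 0.10 FPKM in DEN+CCl4 liver and at 0.03, 0.12 and 0.12 FPKM in control liver, and its groups overlapped as deposited but not after median-ratio scaling or without DEN+CCl4 replicate 3. Col4a6 did not exceed 0.09 FPKM in any library.

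Col4a4 and Col4a3 are also transcribed head to head, with 71 bases between their annotated starts (chr1:82586850-82586920). This interval is shown because both of its genes were higher in DEN+CCl4 liver. It is written on the strand of Col4a4 from RefSeq on GRCm38.p6.
Col4a4-Col4a3: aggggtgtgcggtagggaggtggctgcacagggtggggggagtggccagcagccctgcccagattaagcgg
None of the 3 motifs is in it. In the order CCAAT box, TATA box and GC box, they occurred in 13.3%, 4.41% and 20.7% of the last 71 bases before all RefSeq starts. Col4a6 and Col4a5 on the X chromosome are another head-to-head pair, with 1308 bases between them.

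Among the other collagens, Col18a1 (chromosome 10, 77052178 to 77166548) had the highest FPKM of all collagen genes in each of the 6 libraries. It measured 79.37, 52.09 and 10.78 FPKM in DEN+CCl4 liver, against 78.11, 89.78 and 77.57 FPKM in control liver. DEN+CCl4 replicate 1 was at the control level, and replicates 2 and 3 were below it. The means were 47.4 ± 34.5 and 81.8 ± 6.90 FPKM in DEN+CCl4 and control liver (SD, n = 3), with a log2 fold change of -1.16 ± 0.97 (standard error; limma adjusted p = 0.989). Without replicate 3 the log2 fold change was -0.34. After median-ratio scaling it was at 63.8, 35.7 and 25.7 in DEN+CCl4 liver and at 71.2, 78.7 and 66.8 in control liver, without overlap. Col15a1, its relative in the multiplexin family at basement membrane zones, was at 1.35, 0.89 and 0.35 FPKM in DEN+CCl4 liver and at 1.38, 0.53 and 0.37 FPKM in control liver, so the groups covered the same range.

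Type VI collagen forms beaded microfilaments around cells. Its main chain Col6a1 was at 4.71, 4.54 and 1.42 FPKM in DEN+CCl4 liver and at 2.32, 2.96 and 2.57 FPKM in control liver (log2 fold change 0.24 ± 0.54, standard error, limma adjusted p = 0.996). DEN+CCl4 replicates 1 and 2 were above the controls and replicate 3 below. After median-ratio scaling it was between 3.11 and 3.79 in DEN+CCl4 liver and between 2.12 and 2.59 in control liver. Its neighbour Col6a2 was at 1.11, 1.39 and 0.25 FPKM in DEN+CCl4 liver and at 0.40, 0.54 and 0.48 FPKM in control liver, and it too separated after that scaling. Col6a3 was at 0.99, 1.85 and 0.11 FPKM in DEN+CCl4 liver and at 0.31, 0.40 and 0.34 FPKM in control liver, and replicate 3 was below all controls on both scales. Col6a6, one of the chains that can stand in for Col6a3, was at 0.57, 1.34 and 0.12 FPKM in DEN+CCl4 liver and at 0.11, 0.04 and 0.08 FPKM in control liver. Its groups did not overlap, although DEN+CCl4 replicate 3 lay just above the highest control. Its neighbour Col6a5 was at 0.32, 0.34 and 0.01 FPKM in DEN+CCl4 liver and did not exceed 0.05 FPKM in control liver.

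Of the fibril-associated collagens, which sit on the surface of other fibrils, Col14a1 was at 2.97, 2.67 and 1.56 FPKM in DEN+CCl4 liver, against 1.39, 1.01 and 1.34 FPKM in control liver. All 3 DEN+CCl4 libraries were above the controls (log2 fold change 0.58 ± 0.46, standard error, limma adjusted p = 0.982). Col20a1 was at 0.94, 1.71 and 0.54 FPKM in DEN+CCl4 liver and at 0.91, 1.28 and 0.73 FPKM in control liver (log2 fold change 0.03, limma adjusted p = 0.998). Col16a1 was between 0.09 and 0.55 FPKM in DEN+CCl4 liver and between 0.21 and 0.36 FPKM in control liver. Col9a3, of cartilage, was between 0.05 and 0.07 FPKM in DEN+CCl4 liver and between 0 and 0.15 FPKM in control liver. The membrane-spanning Col13a1 was between 0.10 and 0.30 FPKM in DEN+CCl4 liver and between 0.17 and 0.67 FPKM in control liver. Col7a1, the anchoring fibril collagen of skin, did not exceed 0.12 FPKM in DEN+CCl4 liver or 0.19 FPKM in control liver, and Col8a2, a short-chain network collagen, did not exceed 0.12 or 0.02 FPKM. The 6 others, Col12a1, Col22a1, Col8a1, Col17a1, Col23a1 and Col25a1, did not exceed 0.10 FPKM in any library, and their groups overlapped. In all, 9 of the 36 genes never exceeded 0.1 FPKM.

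**Figure D2:**
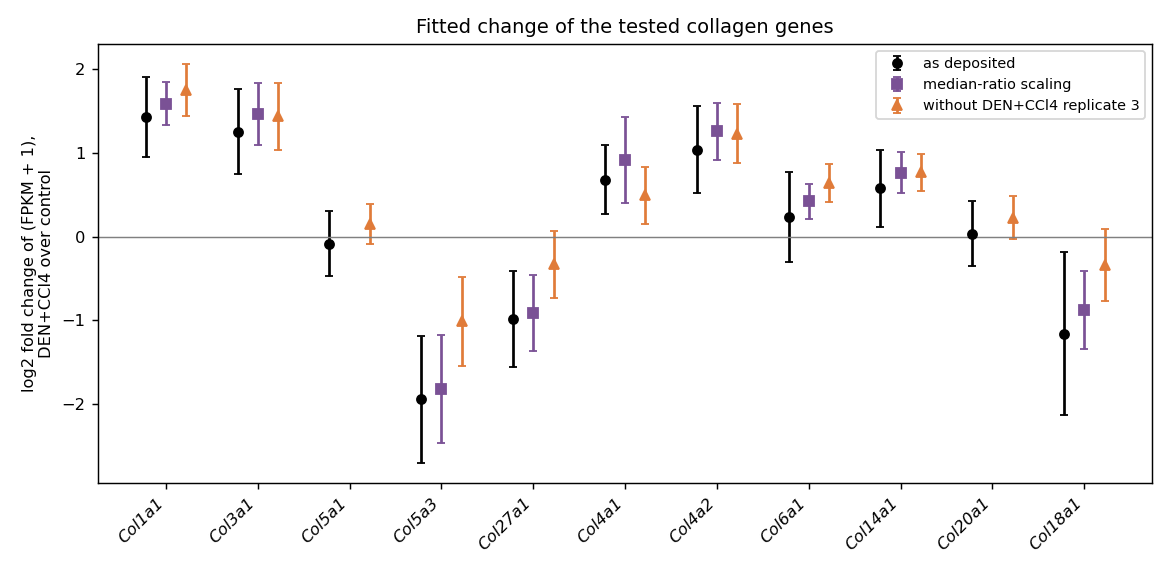
Fitted log2 fold change of FPKM + 1, DEN+CCl4 over control, for the 11 tested collagen genes as deposited, after median-ratio scaling and without DEN+CCl4 replicate 3, with bars for the standard error. Col5a1 and Col20a1 have no point after median-ratio scaling because they then missed the filter of 1. Col1a1, Col3a1 and Col4a2 are above 0 and Col5a3, Col27a1 and Col18a1 below 0 in each.

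The make-up of collagen expression within a library does not depend on the scale of that library. Col18a1 held 59.8%, 47.0% and 35.8% of the summed collagen FPKM in DEN+CCl4 liver, against 68.5%, 62.8% and 67.1% in control liver. The 3 type I and III chains together held 5.19%, 16.1% and 19.9% in DEN+CCl4 liver and 2.25%, 1.39% and 1.97% in control liver. The type IV chains held 3.76%, 12% and 21.6% in DEN+CCl4 liver and 2.82%, 1.59% and 1.91% in control liver. For all 3 shares the groups did not overlap, and DEN+CCl4 replicate 1 was the library nearest to the controls. The shares of a library add up to 100%, so a lower Col18a1 makes the other shares larger, and these are not 3 separate results. In DEN+CCl4 replicate 3, for example, the fibril-associated collagens held 7.78% at 2.34 FPKM. In control liver they held 2.00% to 2.31% at 2.35 to 2.86 FPKM. Col5a3 and Col27a1 together held 18.7%, 7.52% and 3.16% in DEN+CCl4 liver and 18.7%, 27.0% and 21.6% in control liver. These subsets of the fibrillar class were set apart after their values were seen, and no test was run on a share.

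**Figure D3:**
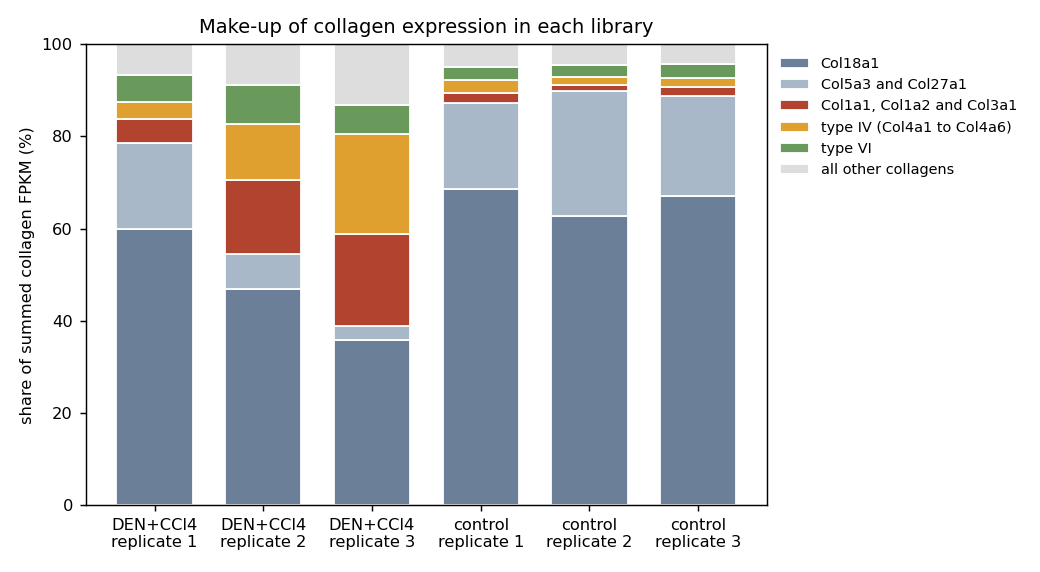
Share of the summed FPKM of all 36 collagen genes, in percent, held by Col18a1, by Col5a3 with Col27a1, by the type I and III chains, by type IV, by type VI and by the rest, in each of the 6 libraries. Col18a1 holds 35.8% to 59.8% in the DEN+CCl4 libraries and 62.8% to 68.5% in the control libraries.

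As sums of FPKM, the type IV genes came to 4.99, 13.3 and 6.51 FPKM in DEN+CCl4 liver and to 3.22, 2.27 and 2.21 FPKM in control liver, a ratio of means of 3.23. The fibrillar genes summed to 34.3, 29.3 and 8.06 FPKM in DEN+CCl4 liver and to 25.1, 42.6 and 29.0 FPKM in control liver, a ratio of 0.741. These groups overlapped, and the log2 ratio of -0.43 was -0.02 without DEN+CCl4 replicate 3. Without those 2 genes the fibrillar sum was 9.52, 21.0 and 7.11 FPKM in DEN+CCl4 liver and 3.69, 3.95 and 4.03 FPKM in control liver, without overlap. The other collagens summed to 93.4, 68.2 and 15.5 FPKM in DEN+CCl4 liver and to 85.7, 98.2 and 84.3 FPKM in control liver, mostly Col18a1, with a log2 ratio of -0.60, or -0.15 without that replicate. All 36 genes together gave 133, 111 and 30.1 FPKM in DEN+CCl4 liver and 114, 143 and 116 FPKM in control liver, a log2 ratio of means of -0.45, or -0.03 without DEN+CCl4 replicate 3.

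Ratios between single chains within a library were compared for 4 pairs. Col1a1 to Col1a2, the chains of type I collagen, stood at 3.52, 3.57 and 2.17 in DEN+CCl4 liver and at 2.25, 2.33 and 2.24 in control liver. DEN+CCl4 replicates 1 and 2 were above the controls and replicate 3 was below them, and the log2 difference of 0.40 had p = 0.4 in an exact two-sided permutation test (0.533 adjusted over the 4 pairs). Col3a1 to Col1a1 was 0.751, 1.18 and 1.45 in DEN+CCl4 liver and 1.15, 1.73 and 1.64 in control liver (log2 difference -0.45, exact permutation p = 0.3, adjusted 0.533). Col4a1 to Col4a2 was 0.349, 0.239 and 0.847 in DEN+CCl4 liver and 1.04, 0.255 and 0.273 in control liver, with 1 library of each group far from the other 2 (log2 difference -0.01, exact permutation p = 1.0). Col1a1 to Col4a1 was 3.22, 3.78 and 0.792 in DEN+CCl4 liver and 0.615, 1.54 and 1.76 in control liver (log2 difference 0.84, exact permutation p = 0.4, adjusted 0.533). When 0.1 was added to each FPKM, the log2 differences were 0.53, -0.39, -0.11 and 0.86 in the same order. Their exact permutation p was 0.1, 0.3, 0.8 and 0.3, without adjustment over the pairs. With 3 libraries against 3 the test cannot go below 0.1.

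**Figure D4:**
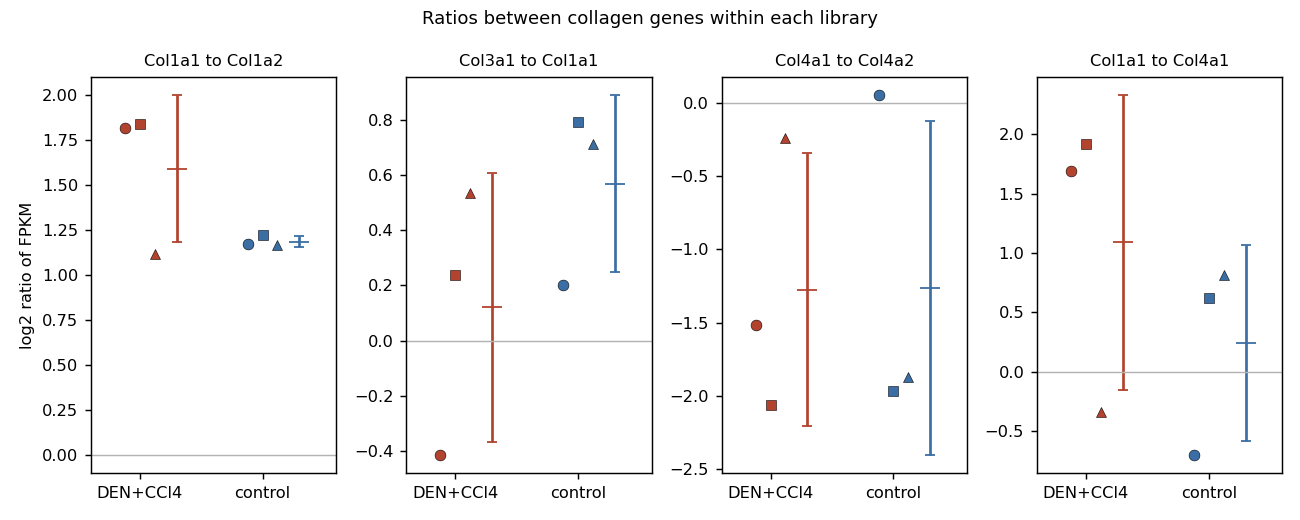
Log2 ratio of FPKM between 2 collagen genes within each library for 4 pairs, each panel with its own axis. Circles, squares and triangles are replicates 1, 2 and 3 of DEN+CCl4 (red) and control (blue), and the bar beside them is the mean ± SD of 3. The 3 control values of Col1a1 to Col1a2 lie close together, and in all 4 panels the 2 groups overlap.

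The genes that fold, process, bind and accompany collagens were read from the same fit. As with the collagens, a gene low in controls was tested only if its DEN+CCl4 values were high. Of all tested genes, 0.833% were called higher and 0.645% lower. Of the laminins, nidogens and other basement membrane partners, 1 of 5 tested rose and 0 fell. It was Nid1, the nidogen that links laminin to type IV collagen, at 0.64, 3.65 and 4.13 FPKM in DEN+CCl4 liver and 0.19, 0.21 and 0.24 FPKM in control liver (log2 fold change 1.48, limma adjusted p = 0.0247). After median-ratio scaling its log2 fold change was 1.70 (limma adjusted p = 0.432). The call was also lost without any 1 control library (limma adjusted p = 0.391 to 0.495) and without DEN+CCl4 replicate 2 (limma adjusted p = 0.103), and without DEN+CCl4 replicate 3 Nid1 missed the filter and was not tested. Over all alternatives in which Nid1 was tested its limma adjusted p lay between 0.0012 and 0.875. Sparc, a collagen-binding matricellular protein and the most abundant of the list over the 6 libraries, was at 5.46, 12.83 and 5.24 FPKM in DEN+CCl4 liver and 3.63, 2.51 and 3.36 FPKM in control liver (log2 fold change 0.99, limma adjusted p = 0.843). Agrn, agrin, averaged 4.38 ± 2.76 FPKM in DEN+CCl4 liver and 6.41 ± 2.65 FPKM in control liver. The median log2 fold change of the 5 was 0.99. Nid1 and the laminin genes Lama5 and Lamb2 averaged 0.213, 0.703 and 0.98 FPKM in control liver. They passed the filter only through their DEN+CCl4 values, so the 5 are a selected part of the list. Without a filter, 4 of the 15 listed genes lay above all controls (6 after median-ratio scaling), against 3.83% of all genes (6.55% after the scaling).

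Of the 10 tested genes of collagen folding and modification, 0 rose and 0 fell, with a median log2 fold change of -0.06 and 0 at an unadjusted p under 0.05 in limma's test. P4hb, the shared subunit of prolyl hydroxylase, averaged 159 ± 76.8 FPKM in DEN+CCl4 liver and 168 ± 57.6 FPKM in control liver, and the isomerase gene Ppib averaged 31.4 ± 20.4 and 36.2 ± 15.8 FPKM. Of the 3 tested processing and crosslinking genes 0 were called by limma in either direction (0 at an unadjusted p under 0.05). The procollagen proteinase Bmp1 averaged 28.7 ± 19.6 FPKM in DEN+CCl4 liver and 36.1 ± 9.21 FPKM in control liver, and Pcolce, which speeds that cleavage, averaged 3.20 ± 1.43 and 2.22 ± 0.233 FPKM. Of the 2 tested collagen receptors 0 were called (1 at an unadjusted p under 0.05). Ddr1, a receptor kinase for collagen, averaged 2.07 ± 2.12 FPKM in DEN+CCl4 liver and 0.260 ± 0.02 FPKM in control liver (limma adjusted p = 0.173), and the integrin subunit Itgb1 averaged 7.12 ± 2.63 and 7.39 ± 2.06 FPKM. Ddr1 passed the filter only through its DEN+CCl4 values. Of 4 tested fibril-associated proteoglycans and glycoproteins 0 were called (0 at an unadjusted p under 0.05 in limma's test), with Fn1, fibronectin, at 41.8 ± 11.3 and 32.2 ± 11.4 FPKM in DEN+CCl4 and control liver and the proteoglycan Bgn at 9.50 ± 3.34 and 8.48 ± 2.11 FPKM. Of 4 tested TGF-beta and PDGF signalling genes 0 were called (0 at an unadjusted p under 0.05 in limma's test), and Tgfb1, the main fibrogenic cytokine, averaged 1.63 ± 0.621 FPKM in DEN+CCl4 liver and 1.08 ± 0.14 FPKM in control liver. Pdgfrb, the PDGF receptor of stellate cells, averaged 2.15 ± 1.38 and 1.23 ± 0.171 FPKM. Without a filter, genes above all controls were 0 of 18 for folding, 2 of 11 for processing and 2 of 10 for receptors. They were 3 of 13 fibril-associated and 1 of 11 signalling genes, against 3.83% of all genes. After median-ratio scaling the counts were 5, 5, 5, 5 and 3 in the same order, against 6.55% of genes. On each scale 1 folding gene and no gene of the other lists named here lay below all controls, against 4.06% and 5.83% of genes.

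Markers of cells that can make collagen were read beside these values. The 6 myofibroblast and smooth muscle markers summed to 11.8, 22.7 and 10.4 FPKM in DEN+CCl4 liver and to 6.00, 6.27 and 8.29 FPKM in control liver, and 3 of the 6, Acta2, Tagln and Myl9, lay above all controls, against 3.83% of all genes. After median-ratio scaling 4 of the 6 lay above all controls and 1, Cnn1, below, against 6.55% and 5.83% of genes. Tpm2, another smooth muscle gene of the list, averaged 1.16 ± 0.656 FPKM in DEN+CCl4 liver and 1.97 ± 1.18 FPKM in control liver (log2 fold change -0.44, limma adjusted p = 0.996). Acta2, smooth muscle actin, was at 2.87, 10.86 and 3.87 FPKM in DEN+CCl4 liver and at 1.58, 1.44 and 1.08 FPKM in control liver (log2 fold change 1.36, limma adjusted p = 0.282). As deposited, Acta2, Col1a1, Col3a1 and Col4a2 were each highest in DEN+CCl4 replicate 2. After median-ratio scaling Acta2 was at 2.31, 7.44 and 9.24 in DEN+CCl4 liver and at 1.44, 1.26 and 0.929 in control liver, and it, Col3a1 and Col4a2 were highest in replicate 3. The 8 stellate cell markers summed to 11.6, 11.2 and 8.04 FPKM in DEN+CCl4 liver and to 9.14, 9.48 and 8.75 FPKM in control liver, and the 6 portal fibroblast and mesothelial markers to 3.40, 13.4 and 2.59 FPKM and to 1.97, 2.13 and 2.30 FPKM. The 8 sinusoidal endothelial markers summed to 37.2, 45.3 and 14.1 FPKM in DEN+CCl4 liver and to 24.2, 36.7 and 22.7 FPKM in control liver. The 7 hepatocyte markers summed to 26500, 61900 and 11900 FPKM in DEN+CCl4 liver and to 32100, 27600 and 42700 FPKM in control liver, mostly Alb and Apoa1. Of these 7, 6 had a negative log2 fold change, with a median of -0.40, beside -0.27 for all tested genes. On both scales 1 of the 7, Cps1, lay below all controls and 0 lay above. The 7 bile duct markers summed to 22.2, 45.8 and 26.8 FPKM in DEN+CCl4 liver and to 23.5, 20.4 and 17.2 FPKM in control liver, the 6 Kupffer cell markers to 35.6, 19.6 and 18.1 FPKM and to 78.3, 36.6 and 29.5 FPKM, and the 6 leukocyte markers to 13.1, 8.83 and 4.63 FPKM and to 11.6, 7.69 and 4.50 FPKM. No marker was at 0 in every library, and 0 of the tested markers of the 8 lists were called by limma (2 at an unadjusted p under 0.05, Acta2 and the portal fibroblast gene Entpd2). Entpd2 averaged 0.983 FPKM in control liver and passed the filter only through its DEN+CCl4 values. After median-ratio scaling DEN+CCl4 replicate 3 moved most. The stellate sum was then 9.30, 7.70 and 19.2 in DEN+CCl4 liver and 8.34, 8.31 and 7.53 in control liver, and the myofibroblast sum 9.46, 15.6 and 24.8 in DEN+CCl4 liver and 5.47, 5.49 and 7.13 in control liver. Rgs5, at 4.46 FPKM as deposited, was the largest stellate marker in DEN+CCl4 replicate 3. As deposited, 1 of the 8 stellate markers, Rgs5, lay above all controls and 1, Lrat, below, against 3.83% and 4.06% of genes. After the scaling 2 lay above and 0 below, against 6.55% and 5.83%. The portal fibroblast sum was 2.73, 9.17 and 6.18 in DEN+CCl4 liver and 1.80, 1.87 and 1.98 in control liver, and the endothelial sum 29.9, 31.1 and 33.8 in DEN+CCl4 liver and 22.1, 32.2 and 19.5 in control liver. The bile duct sum was 17.8, 31.4 and 63.9 in DEN+CCl4 liver and 21.5, 17.9 and 14.8 in control liver, and the Kupffer sum 28.6, 13.4 and 43.1 in DEN+CCl4 liver and 71.4, 32.1 and 25.4 in control liver. Spp1 was the largest bile duct marker in each DEN+CCl4 library, at 12.93, 27.37 and 24.19 FPKM as deposited. In control liver it was at 14.88, 8.75 and 8.20 FPKM. On both scales 0 of the 7 bile duct markers lay above all controls and 1, Epcam, lay below. The leukocyte sum was 10.5, 6.05 and 11.1 in DEN+CCl4 liver and 10.6, 6.74 and 3.87 in control liver, and the hepatocyte sum 21300, 42400 and 28300 in DEN+CCl4 liver and 29300, 24200 and 36700 in control liver. As deposited, 3 of the 6 portal fibroblast, 1 of the 8 endothelial and 1 of the 6 leukocyte markers lay above all controls. In these lists 0 lay below, and of the 6 Kupffer cell markers 0 lay above and 2 below, against 3.83% and 4.06% of genes. With the scaling the counts above all controls were 2, 3 and 1 in the same order, with 0 below. For Kupffer cell markers they were 0 above and 1 below, against 6.55% and 5.83% of genes. The part of these cell types in the collagen values was not tested.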

How the data were processed

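Poly(A) RNA from mouse liver was sequenced in 6 libraries, per the labels' protocols. The authors deposited 1 table of FPKM values per gene, with 2 decimals, and HISAT, StringTie and build GRCm38 are named in the submitters' processing notes. For versions, annotation release and strand the sources used here say nothing. The table holds no counts, so library depth is unknown and counting error cannot be stated.

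limma 3.58.1 (R 4.3.3; empirical Bayes with trend, two-sided) was fitted to log2(FPKM + 1) for the 8528 genes that averaged 1 FPKM or more, with Benjamini-Hochberg adjustment over all of them and a threshold of 0.05. A fold change on this scale understates the change of low genes. Median-ratio scaling used genes above 0 in every library. Sums over a class were compared without a test, and within-library ratios with exact permutation tests (scipy 1.17.1). The fit was checked on simulated data with independent noise of the spread of the controls. That simulation held no library that stands apart as DEN+CCl4 replicate 3 does, so the check does not cover that feature.

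Collagen genes that averaged 1 FPKM or more in either group are given library by library, and the rest by range, with those above 0.1 FPKM in any library named. Some of the rest are given library by library for comparison with related chains, chosen after their values were seen. Of each other list, called genes and the 2 with the highest mean are named. Ddr1, Lama5, Lamb2, C430014B12Rik and the cell markers Entpd2, Spp1, Epcam, Rgs5, Lrat, Apoa1 and Cps1 were named after their values were seen. So were the smooth muscle markers and the subsets of the fibrillar class. The members, lists and tests were chosen with earlier results of these data known. Of 44 listed collagens, 8 were not analysed here. Alternatives were another pseudocount and filters, TPM, scaling without mitochondrially encoded genes, no trend, a replicate block and leaving out each library. The counts of non-overlapping genes under these settings were chosen after seeing the data, as were the sequences shown. Gene positions are from GENCODE M21, and upstream sequences from RefSeq.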

Additional observations from a re-analysis of the deposited data

How the results depend on the processing

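The number of genes called depended on the processing. Against 71 genes called higher in the deposited values, 6 were called with a pseudocount of 0.1, 0 without a filter, 14 with a filter of 5 FPKM, 0 after median-ratio scaling with or without DEN+CCl4 replicate 3, 37 as TPM, 6 after scaling without mitochondrially encoded genes and 0 without trend. Against 55 called lower, the numbers were 3, 0, 53, 0, 29, 3 and 0 in the same order. Leaving out 1 library gave 0 to 120 higher and 0 to 272 lower, with 120 and 272 when DEN+CCl4 replicate 1 was left out, 22 and 13 when replicate 2 was, and at most 11 and 9 without 1 control. No collagen gene was called higher under any alternative, and leaving out 1 library gave 0 to 1 called lower, Col5a3. Collagen genes whose groups did not overlap numbered 9 to 17 higher and 1 to 5 lower without 1 library, and 12 higher and 3 lower after median-ratio scaling. Over all genes the shares were 6.55% and 5.83% after the scaling. They were 16.6% and 4.34% without DEN+CCl4 replicate 3, which gave the 17. For the other left-out libraries no share over all genes was computed, so those counts give no result about collagens. Without 1 library the log2 ratio of the fibrillar sum lay between -0.79 and -0.02, of type IV between 1.16 and 1.95 and of the others between -1.10 and -0.15. The log2 difference of Col4a1 to Col4a2 turned its sign, between -0.53 and 0.65, as did Col20a1 (-0.017 as TPM, -0.0555 to 0.226 without 1 library) and Col5a1 (-0.222 to 0.15 without 1 library, 0.0217 with median-ratio scaling and without DEN+CCl4 replicate 3). The cause was not tested. With the replicate number as a block, 62 genes were called higher and 32 lower, and 0 collagen genes. Deviations of same-numbered libraries correlated at 0.0716, 0.416 and -0.146, and those of differently numbered libraries between -0.372 and 0.228. With 3 libraries a group these values cannot show whether the numbers pair the libraries. With 3 libraries a group, 1 of which stands apart, and 2-decimal FPKM, the lowest collagen genes cannot be compared firmly.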
